A study of Mus musculus with 6 samples.

Results

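SPARC, SPARC-like 1, the 3 SPOCK proteoglycans (testicans) and the 2 SMOC proteins form 1 family of secreted, calcium-binding matrix proteins, and the 7 genes that encode them, Sparc, Sparcl1, Spock1, Spock2, Spock3, Smoc1 and Smoc2, were followed in mouse aorta with and without Prdm16 in smooth muscle cells. All 7 symbols were found among the 55487 genes of the count table, once each. Of these, 5 had a count over 10 in all libraries of at least 1 group and were tested with 16565 genes in all, whereas Spock1 and Spock3 were not. The family was picked with the differences between these same 6 libraries already known, so differences between the groups are given for its members as a description, with no p-value. RNA came from aortas of 3 Prdm16 inducible smooth muscle-specific knockout (iSM KO) and 3 control male mice on a C57BL/6 background, sampled at baseline, with the adventitia stripped away. Both groups carried the tamoxifen-inducible Myh11-CreERT2 transgene, which sits on the Y chromosome and drives Cre in smooth muscle, and both received 1 mg tamoxifen a day for 10 days from 8 weeks of age, then 2 weeks of washout and 60 further days. iSM KO mice had 2 floxed copies of Prdm16, and controls had 2 wild-type copies. Cells of the vessel other than smooth muscle were not targeted.

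Proteins of this family share a follistatin-like domain and an extracellular calcium-binding domain with EF hands. SPARC (osteonectin) binds fibrillar and basement membrane collagens, helps their assembly and loosens cell contacts with the matrix, and SPARC-like 1 (hevin) is its closest relative. SPOCK proteins add a thyroglobulin-like domain and a tail that carries heparan or chondroitin sulfate chains, and they have been linked to the control of membrane-type metalloproteinases and cathepsin L. SMOC proteins also hold thyroglobulin-like domains, lie in basement membranes and modulate BMP signaling.

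The 6 libraries held between 24911609 and 40460467 counts, with control 3 the smallest, and 3 counts, the floor used here for detection, corresponded to 0.0736 to 0.126 CPM, the count scaled to library size. Prdm16 itself was at 183, 223 and 179 CPM in controls 1 to 3 and at 93.8, 113 and 79.8 CPM in iSM KO mice 1 to 3, and its log2 fold change of iSM KO over control was -1.03 (standard error 0.14). Counts are given per gene, and reads of the floxed exon 9 cannot be told apart from the rest in them. The smooth muscle markers Myh11 and Acta2 were at 6942 CPM or more in every library.

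Spock2, which encodes testican-2, was the member with the largest difference between groups. Its counts were 494, 470 and 381 in controls 1 to 3 and 2554, 2772 and 2661 in iSM KO mice 1 to 3. On the scaled totals, these were 14.7, 12.2 and 16.0 CPM in controls against 62.7, 79.4 and 72.9 CPM in iSM KO aortas. Every iSM KO library lay far above every control. The SD of its log2 CPM was 0.20 in controls and 0.17 in iSM KO, against medians over all tested genes of 0.19 and 0.13. The means were 14.3 ± 1.91 CPM and 71.7 ± 8.45 CPM (SD, n = 3 each), and the log2 fold change was 2.33 (standard error 0.13), or 5.02-fold. Of all 16565 tested genes, 60 had a higher log2 fold change. With each library left out in turn the log2 fold change stayed between 2.22 and 2.41.

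Spock2 (ENSMUSG00000058297) lies on the plus strand of chromosome 10 of GRCm38, from 60106219 to 60135198, and its longest coding transcript has 11 exons, 5238 bp in all and 1269 coding bp. A microRNA gene, Mir6906, lies inside it on the same strand and had 0 counts in every library. Since Spock2 carried the family's main difference, the 212 bases before its first annotated transcript start are shown, taken from RefSeq (GRCm38, plus strand, chr10:60106007-60106218), with the longest run of a single base in capitals.
Spock2: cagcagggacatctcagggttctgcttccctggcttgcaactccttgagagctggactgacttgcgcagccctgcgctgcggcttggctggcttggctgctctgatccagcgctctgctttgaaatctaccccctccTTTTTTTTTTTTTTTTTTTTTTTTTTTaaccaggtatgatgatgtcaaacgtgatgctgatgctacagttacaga
The capitals mark 27 T in a row, from 75 to 49 bases before the start. A run of A or T at least that long was present in 0.0366% of 32817 windows, each the first 212 bases of a promoter sequence. Unlike the window of Spock2, these were not set to end at the first annotated transcript start of each gene. The window was 48.6% G and C. None of 7 motifs searched on both strands had a match in it: TATAAA, present in 9.64% of all windows, GGGCGG in 27.2%, CAGAC in 37.4%, TGANTCA in 5.89%, GATAA in 20.1%, CANNTG in 61.0% and the CArG box in 1.25%.

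The other testican genes were close to the limit of detection. Spock1 had 7, 2 and 12 counts in controls 1 to 3 and 10, 14 and 25 in iSM KO mice 1 to 3, or 0.255 ± 0.229 CPM and 0.444 ± 0.223 CPM (SD, n = 3 each). Its groups overlapped, and its largest value was in iSM KO mouse 3. Spock3 had 1, 0 and 1 counts in controls and 1, 2 and 5 in iSM KO mice, so that only iSM KO mouse 3 was above the floor of 3 counts. At this depth no difference could be described for Spock3. Spock2 therefore supplied nearly all counts of the SPOCK genes, whose sum was 12.3 to 16.5 CPM in controls and 62.9 to 79.9 CPM in iSM KO aortas.

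**Figure D1:**
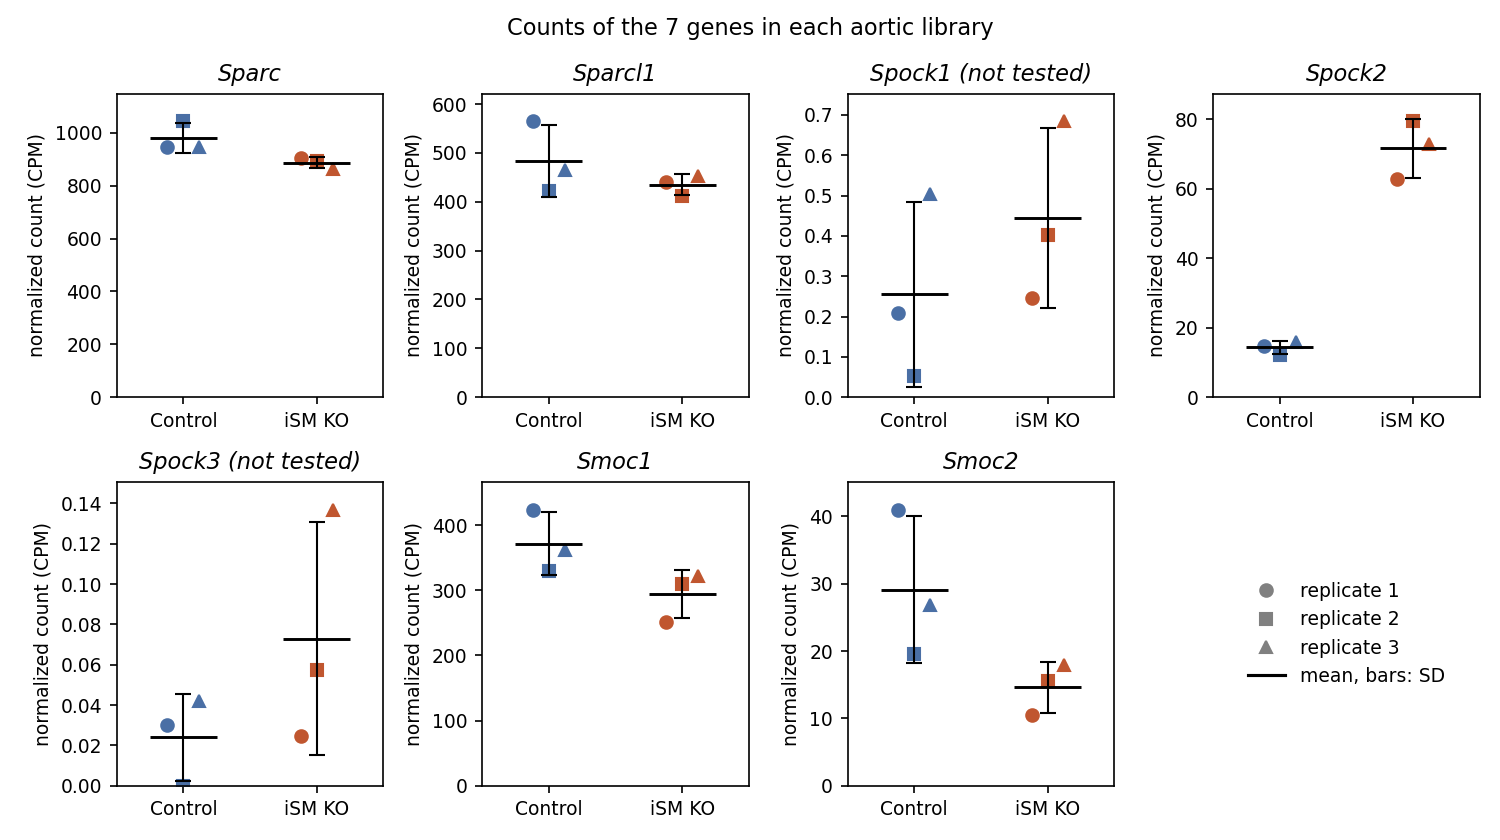
Normalized counts (CPM) of the 7 genes, 1 panel per gene with its own axis from 0, in 3 control and 3 iSM KO libraries, with points for libraries, horizontal lines for means and bars for SDs. Spock2 was at 12.2 to 16.0 CPM in controls and 62.7 to 79.4 CPM in iSM KO aortas, whereas Sparc and Sparcl1 differed little.

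Sparc, the most abundant member, showed a small difference. It was at 945, 1045 and 947 CPM in controls 1 to 3 and at 904, 895 and 864 CPM in iSM KO mice 1 to 3. The iSM KO libraries all lay below the controls, but the gap between the nearest libraries of the groups was smaller than the spread among the controls. The means were 979 ± 56.7 CPM and 888 ± 21.0 CPM (SD, n = 3 each), a log2 fold change of -0.14 (standard error 0.09), which was -0.09 without control 2.

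Sparcl1 overlapped between the groups. Its values were 565, 421 and 464 CPM in controls 1 to 3 and 441, 412 and 452 CPM in iSM KO mice 1 to 3. Control 1 was the highest library and the other controls lay near the iSM KO range. The log2 fold change was -0.15 (standard error 0.12), and it was -0.02 without control 1. An antisense gene, Gm26703, overlaps Sparcl1 on the opposite strand and had at most 33 counts in a library, against 11066 or more for Sparcl1.

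Smoc1, a secreted modulator of BMP signaling, was also abundant. It was at 424, 329 and 361 CPM in controls 1 to 3 and at 252, 309 and 322 CPM in iSM KO mice 1 to 3. The groups did not overlap, but control 2 and iSM KO mouse 3 were nearly equal. The means were 371 ± 48.3 CPM and 294 ± 37.1 CPM (SD, n = 3 each), and the log2 fold change was -0.34 (standard error 0.12).

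Smoc2, the paralog of Smoc1, was lower in iSM KO aortas and was the most variable of the 5 tested members. It was at 41.0, 19.5 and 26.9 CPM in controls 1 to 3 and at 10.5, 15.5 and 17.9 CPM in iSM KO mice 1 to 3. The groups did not overlap, but control 1 held more than any other library and control 2 lay just above iSM KO mouse 3. The means were 29.1 ± 10.9 CPM and 14.6 ± 3.78 CPM (SD, n = 3 each), and the log2 fold change was -0.995 (standard error 0.27), or 1.99-fold lower. The SD of log2 CPM of Smoc2 was 0.54 in controls and 0.40 in iSM KO, against medians over all tested genes of 0.19 and 0.13. Without control 1 the log2 fold change of Smoc2 was -0.66, and without control 2 it was -1.22, the only setting tried in which it passed the threshold for a call (FDR under 0.05 and a change of more than 2-fold).

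Of 8 tested markers of fibroblasts, a cell type of the adventitia, 7 had a negative log2 fold change, but only Clec3b passed the test and fell (log2 fold change -1.56, FDR = 0.0348 from edgeR's quasi-likelihood test). Their summed level was 693 to 841 CPM in controls and 756 to 817 CPM in iSM KO, most of it from Col15a1, which had a positive log2 fold change of 0.36 (FDR = 0.144, edgeR). Without Col15a1, a split chosen after the values were seen, the sum was 372, 173 and 274 CPM in controls 1 to 3 and 139, 153 and 208 CPM in iSM KO mice 1 to 3. Within each group the libraries had the same order for this sum as for Smoc2. Smoc2 amounted to 9.80% to 11.3% of this sum in controls and 7.53% to 10.1% in iSM KO aortas, which overlapped, whereas it amounted to 2.63% to 4.88% and 1.28% to 2.36% of the sum of all 8 markers, which did not overlap. The overlap thus rests on leaving Col15a1 out, and so does the shared order of the libraries. For all 8 markers the sum was 841, 741 and 693 CPM in controls 1 to 3, with controls 2 and 3 ordered unlike Smoc2. In iSM KO mice 1 to 3 it was 817, 796 and 756 CPM, the reverse of the order of Smoc2. Fewer cells of a type and less RNA per cell cannot be told apart in bulk tissue, and the part of fibroblast content in the values of Smoc2 was not tested. Spock2 amounted to 3.96% to 7.05% of the sum without Col15a1 in controls and 35.1% to 51.8% in iSM KO aortas, and to 1.65% to 2.30% and 7.67% to 9.98% of the sum of all 8, ranges that did not overlap on either scale.

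**Figure D2:**
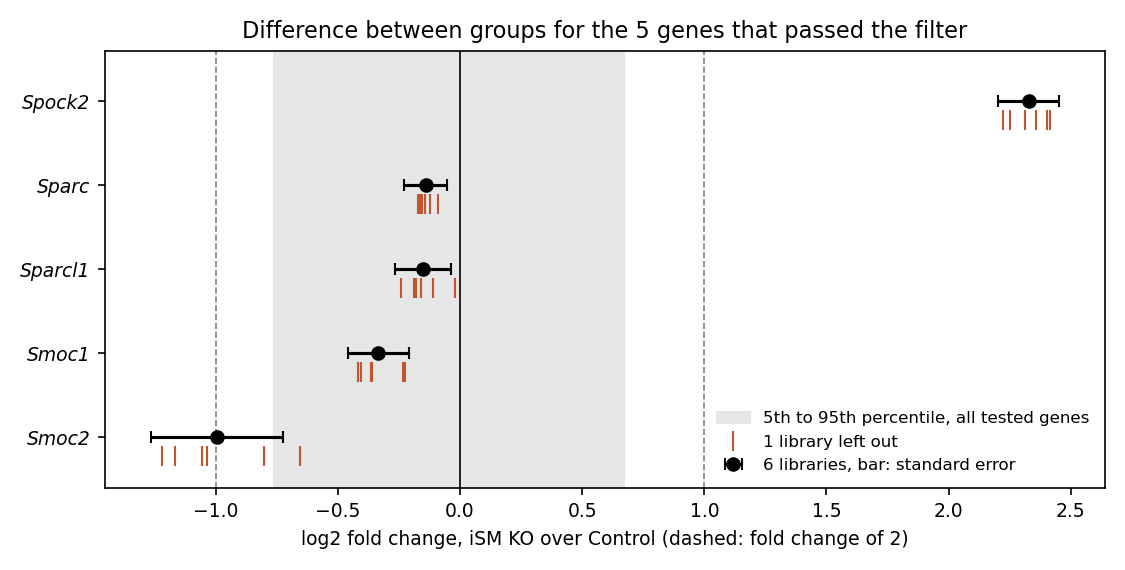
Log2 fold change of iSM KO over control for the 5 genes that passed the filter on low counts, with its standard error (black) and its value with each library left out (orange ticks). The grey band spans the 5th to 95th percentile of all 16565 tested genes, from -0.76 to 0.67, and only Spock2 at 2.33 and Smoc2 at -0.995 lay outside it.

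Genes were called at an FDR under 0.05 and more than a 2-fold change, which 2.78% of all tested genes met, 1.4% higher and 1.38% lower. Of the 5 members tested, Spock2 was called higher and 0 were called lower. Groups did not overlap for 1 member in the higher direction (15% of all tested genes) and for 3 in the lower direction (13.0%), or 4 of 5 against 27.9% in all. Since the members were picked on this contrast, nothing is read from these counts. The median log2 fold change was -0.15 over the 5 members and -0.01 over all tested genes.

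Levels of different genes were compared per kb of the longest coding transcript. Sparc led in controls at 426 ± 24.6 CPM per kb, followed by Sparcl1 at 175 ± 26.8, Smoc1 at 106 ± 13.8, Smoc2 at 10.3 ± 3.86, Spock2 at 2.73 ± 0.365, Spock1 at 0.0552 ± 0.0496 and Spock3 at 0.00748 ± 0.00674 (SD, n = 3 for each). Among neighbours in this order the ranges of the control libraries overlapped for Spock1 and Spock3 and for no other pair. In level per kb Sparc ranked 43rd, Sparcl1 143rd and Smoc1 273rd among 13125 tested protein-coding genes in controls, whereas Smoc2 ranked 3687th and Spock2 8746th.

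In iSM KO aortas Spock2 and Smoc2 traded places. Spock2 was at 13.7 ± 1.61 CPM per kb and Smoc2 at 5.17 ± 1.34 CPM per kb (SD, n = 3 each), and their ranges did not overlap. Spock2 ranked 2772nd and Smoc2 6313th among the protein-coding genes. The level of Spock2 was 0.194, 0.339 and 0.321 times that of Smoc2 in controls 1 to 3 and 3.23, 2.77 and 2.2 times in iSM KO mice 1 to 3. Sparc, Sparcl1 and Smoc1 kept the first 3 places, at 386 ± 9.14, 158 ± 7.5 and 84.2 ± 10.6 CPM per kb (SD, n = 3 each). With levels taken per kb of coding sequence instead, Smoc1 at 267 CPM per kb stood above Sparcl1 at 248 CPM per kb in controls, so the order of these genes rests on the length used.

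**Figure D3:**
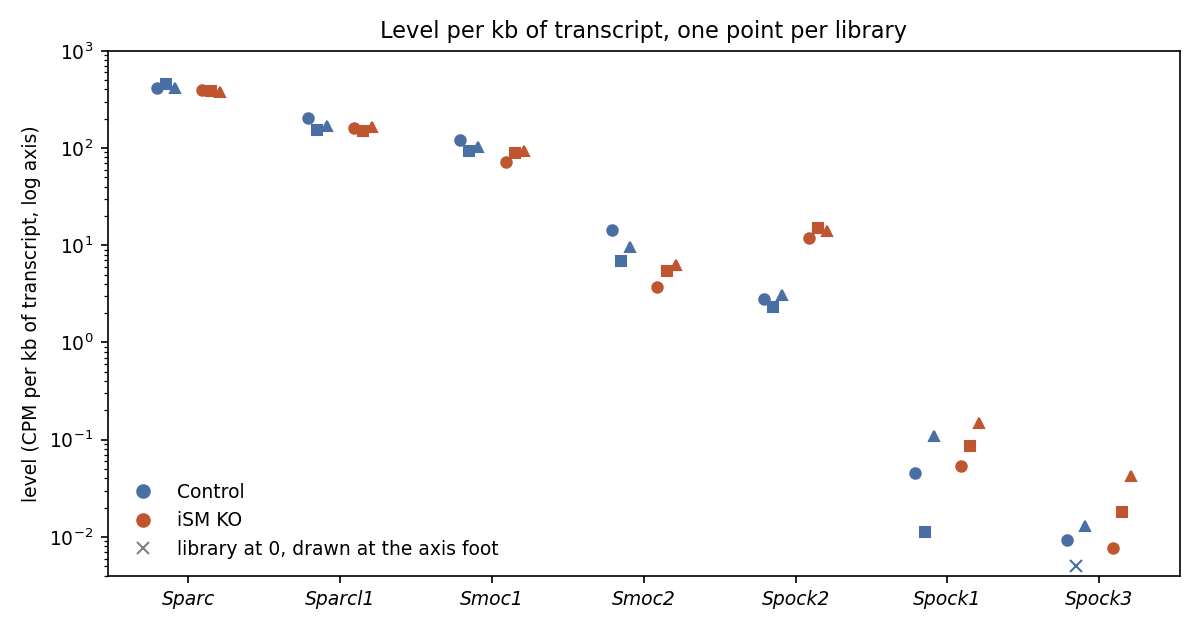
Level of each gene in CPM per kb of transcript on a log axis, with 1 point per library. Spock2 lay below Smoc2 in all 3 controls (2.33 to 3.05 against 6.89 to 14.5) and above it in all 3 iSM KO libraries (12 to 15.2 against 3.70 to 6.31).

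The sum of the family followed its abundant members. Summed over the 7 genes it took 1990, 1827 and 1816 CPM in controls 1 to 3 and 1671, 1712 and 1730 CPM in iSM KO mice 1 to 3. The groups did not overlap, at means of 1878 ± 97.8 CPM and 1704 ± 30.3 CPM (SD, n = 3 each). Per kb, Sparc gave 54.5% to 64.0% of the family's level in controls and 57.6% to 61.4% in iSM KO, and these ranges overlapped. Spock2 gave 0.329% to 0.438% in controls and 1.87% to 2.34% in iSM KO aortas, so that it stayed a minor member of the family even where it was highest. Smoc1 gave 13.2% to 16.1% in controls and 11.3% to 14.1% in iSM KO, which overlapped.

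The members are spread over 7 chromosomes and share no neighbourhood. On GRCm38, Sparc (ENSMUSG00000018593) lies on chromosome 11 from 55394500 to 55423183 and Sparcl1 (ENSMUSG00000029309) on chromosome 5 from 104079111 to 104113733, both on the minus strand. Smoc1 (ENSMUSG00000021136) lies on chromosome 12 from 81026808 to 81186414 and Smoc2 (ENSMUSG00000023886) on chromosome 17 from 14279506 to 14404790, both on the plus strand. Spock1 (ENSMUSG00000056222), on the minus strand of chromosome 13 from 57421195 to 57908332, spans 487138 bp and Spock3 (ENSMUSG00000054162), on the plus strand of chromosome 8 from 62951009 to 63357103, spans 406095 bp, against 28980 bp for Spock2. The 2 long testican genes were the ones near the limit of detection.

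Coding sequences were most alike within the branches. Identity over aligned bases was 62.4% between Smoc1 and Smoc2, 60.1% between Spock1 and Spock2, 58.6% between Spock1 and Spock3, 58.3% between Sparc and Sparcl1 and 56.4% between Spock2 and Spock3. All pairs from different branches lay between 41.6% and 45.5%. No other gene held a stretch of 100 bp or more with at least 95% identity to a transcript of any member.

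The genes nearest to Spock2 in profile were found by the root mean square difference of centred log2 CPM over the 6 libraries. Adcy1, a calcium-stimulated adenylyl cyclase, was nearest at 0.112, with 9.52, 9.65 and 12.5 CPM in controls and 50.3, 63.6 and 58.7 CPM in iSM KO mice. 4930426L09Rik at 0.182 and Cacng4, a calcium channel regulatory subunit, at 0.186 came next, both under 4 CPM in every library. Sparc was nearest to Tcp11l2, Ube4b and Dlc1 (0.022 to 0.028), Sparcl1 to Dnajc19, Galnt4 and Cyp2r1 (0.025 to 0.035), and Smoc1 to Ptpn4 and Dclk1 (0.045 and 0.048). Smoc2 was nearest to Gm20457 at 0.107, Ptgfr, the prostaglandin F receptor, at 0.117 and Adam22 at 0.121. All of these distances are descriptions over 6 libraries that fall into 2 groups, and no member was among the 3 nearest genes of another.

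**Figure D4:**
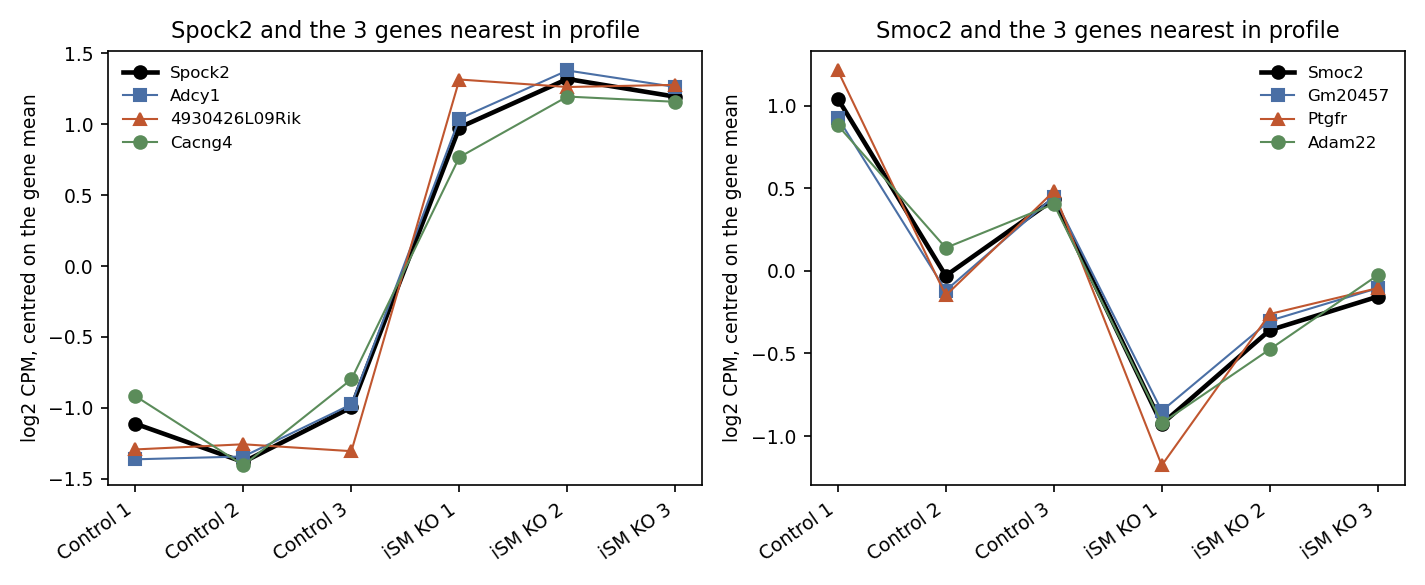
Log2 CPM of Spock2 (left) and Smoc2 (right), each with the 3 genes nearest in profile, centred on each gene's mean over 6 libraries and drawn without a prior count, with lines as a guide only. The genes were picked as nearest over these same libraries, so their likeness to each member was set by the choice. The Spock2 set separated the groups, and in the Smoc2 set control 1 was the highest library.

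Genes linked to the family were taken from 10 lists, written with earlier results of these data known. Of 137 genes, 123 were tested, and 31 passed an FDR of 0.05 in the edgeR quasi-likelihood test adjusted over all genes, 18 higher and 13 lower in iSM KO aortas. That is 25.2%, against 7.56% of all tested genes, of which 4.26% were higher and 3.3% lower, and the median log2 fold change was -0.02. Without iSM KO replicate 2 the number was 17, and without iSM KO replicate 1 it was 20.

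Other genes with a follistatin or Kazal domain moved in both directions. Of 10 tested, 4 rose and 2 fell (median log2 fold change 0.16). Fst, which encodes the activin antagonist follistatin, rose from a mean of 2.05 to 21.2 CPM (log2 fold change 3.34, FDR = 7.45e-05, edgeR), and Tmeff2, a membrane protein with follistatin domains, rose from 4.29 to 20.8 CPM (log2 fold change 2.27, FDR = 7.45e-05, edgeR). Fstl3 and Agrn, which encodes the heparan sulfate proteoglycan agrin, rose by 0.58 and 0.39 on the log2 scale. The serine protease gene Htra3 fell by 0.80 and its relative Htra1 by 0.29. Of these 6 genes, Fst, Tmeff2 and Htra3 kept an FDR under 0.05 with each library left out in turn, Fstl3 and Agrn did in 2 of 6 fits each, and Htra1 in 0 of 6.

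Among 9 collagen genes whose products SPARC binds, 2 rose and 1 fell (median -0.23). Col3a1, a fibrillar collagen, fell from 1084 to 497 CPM (log2 fold change -1.13, FDR = 3.29e-04, edgeR). Col4a1 and Col4a2, the basement membrane pair, rose by 0.50 and 0.63 on the log2 scale. Col4a1 kept an FDR under 0.05 in 2 of the 6 fits that left out a library and Col4a2 in 4. Of 9 other SPARC partners, receptors and the cross-linking enzyme, Plat rose from 55.7 to 125 CPM (log2 fold change 1.16, FDR = 4.74e-04, edgeR), and the other 8 did not pass (median 0.21). Plat encodes tissue plasminogen activator.

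Of 15 matricellular genes of other families, 2 rose and 3 fell (median -0.18). Ccn3 fell from 986 to 404 CPM (log2 fold change -1.29, FDR = 1.85e-04, edgeR) and Comp, a cartilage matrix thrombospondin, fell from 18.9 to 6.83 CPM (log2 fold change -1.47, FDR = 0.00571, edgeR). Thbs3 fell by 0.48, while Ccn4 and Tnr rose by 0.63 and 0.79, each keeping an FDR under 0.05 in at most 2 of 6 fits with a library left out.

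Genes that bear on testicans were examined next to Spock2. Of 8 tested metalloproteinase, inhibitor and cathepsin genes, 2 rose and 0 fell in the edgeR test (median 0.32). Mmp16, a membrane-type metalloproteinase, rose from 9.83 to 15.7 CPM (log2 fold change 0.68, FDR = 0.00719, edgeR). Mmp14 rose by 0.50 on the log2 scale and kept an FDR under 0.05 in 2 of 6 fits with a library left out. Of 22 genes for the glycosaminoglycan linker and heparan sulfate, 3 rose and 2 fell (median -0.06). Xylt1, the xylosyltransferase that starts these chains on a core protein, rose from 21.6 to 47.1 CPM (log2 fold change 1.13, FDR = 3.84e-04, edgeR). The heparan sulfate 6-O-endosulfatase gene Sulf1 rose by 0.61 and Extl3 by 0.27. Extl3 kept an FDR under 0.05 in 1 of 6 fits with a library left out. The sulfotransferase genes Ndst3 and Hs6st2 fell by 1.45 and 1.30 from means under 4 CPM.

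Of 15 chondroitin and dermatan sulfate genes, 3 rose and 1 fell (median 0.06). The sulfotransferase genes Chst3, Chst11 and Ust rose by 0.66, 0.51 and 0.47 on the log2 scale, and Chst15 fell by 0.97. With a library left out, Chst3 kept an FDR under 0.05 in 6 of 6 fits, Chst15 in 3, Ust in 2 and Chst11 in 1. Of 13 other heparan sulfate proteoglycan cores, 2 rose and 2 fell (median 0.20). The syndecan gene Sdc3 rose from 41.3 to 104 CPM (log2 fold change 1.33, FDR = 0.00278, edgeR) and Sdc1 fell from 22 to 10.2 CPM (log2 fold change -1.12, FDR = 0.00195, edgeR). Agrn, counted also above, rose, and Col18a1 fell by 0.52, calls that held in 2 and 3 of 6 fits with a library left out.

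**Figure D5:**
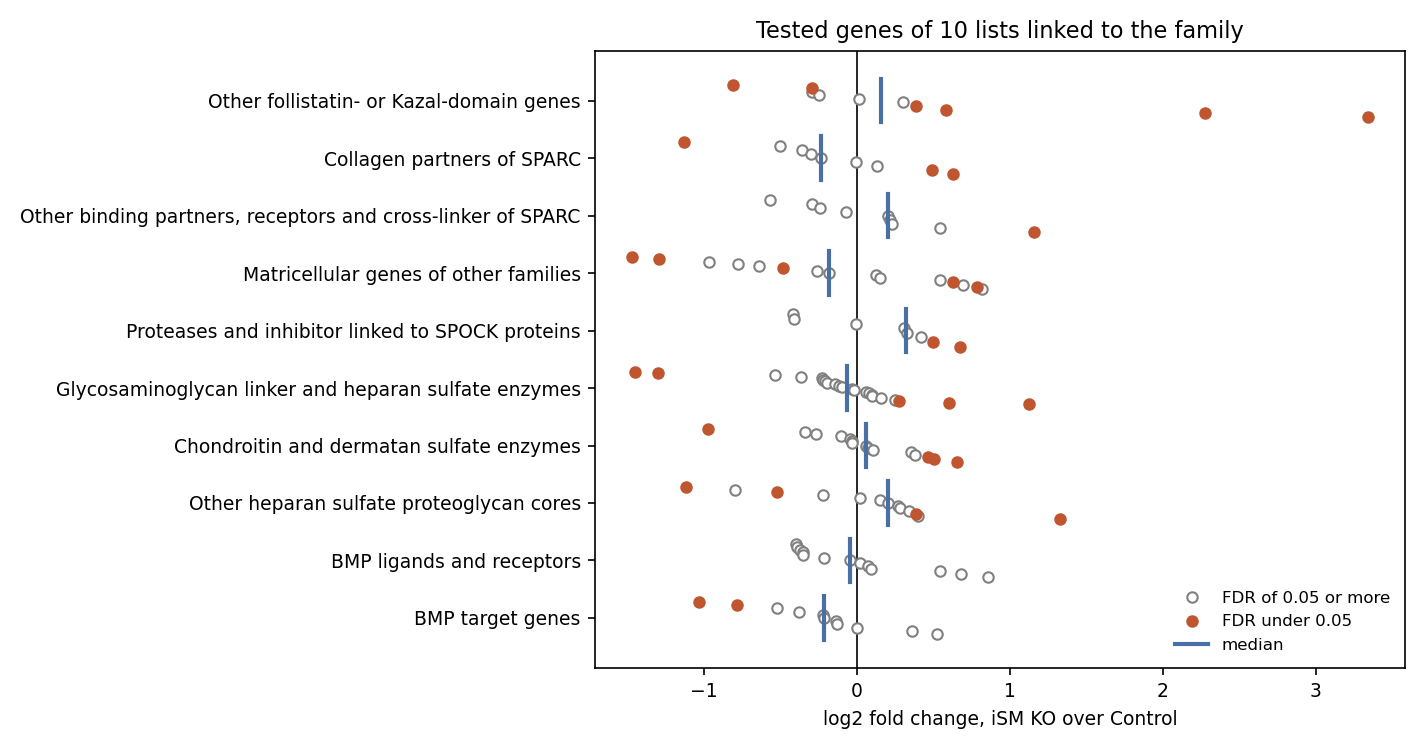
Log2 fold change of iSM KO over control for the tested genes of 10 lists linked to the family, 1 point per gene, filled where the edgeR FDR was under 0.05, with list medians as blue bars. Fst at 3.34 and Tmeff2 at 2.27 lay farthest out, and in 6 of the 10 lists genes were called in both directions.

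BMP genes were listed because SMOC proteins act on this pathway. Of 13 tested ligand and receptor genes, 0 passed an FDR of 0.05 with edgeR, and DESeq2 and limma-voom called 1 and 0 (median -0.04). With edgeR 7 had an unadjusted p under 0.05. The share of all tested genes under that p is not given here, so nothing is read from this number. Of 11 BMP target genes, 0 rose and 2 fell (median -0.21), and 9 did not pass. Id4 fell from 50.6 to 29.4 CPM (log2 fold change -0.78, FDR = 0.00560, edgeR). Id1 fell from 84.1 to 41.1 CPM (log2 fold change -1.03, FDR = 0.0401, edgeR). Id1 kept an FDR under 0.05 in 2 of 6 fits that left out a library.

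Markers of other cells moved between the groups as well. Of 7 tested adipocyte markers 6 fell, and their sum, with Lep included, was 33.3 to 191 CPM in controls and 10.2 to 16.8 CPM in iSM KO. It was lowest among controls in control 1, the library with the highest Smoc2. All 8 endothelial markers had a negative log2 fold change and 0 passed an FDR of 0.05 with edgeR, with sums of 499 to 1043 CPM in controls and 260 to 788 CPM in iSM KO that overlapped. Pericyte sums were 3599 to 4281 CPM in controls and 4592 to 5351 CPM in iSM KO. Most of this came from Rgs5, at means of 2250 and 2791 CPM. Of 5 tested pericyte markers 0 passed an FDR of 0.05 with edgeR (median log2 fold change 0.33), and that of Kcnj8 was negative at -0.24. Schwann cell sums were 22.2 to 25.3 CPM over all libraries. Macrophage sums were 31.0 to 35.3 CPM in controls and 12.9, 12.6 and 36.9 CPM in iSM KO mice 1 to 3. All 7 tested macrophage markers had a negative log2 fold change, and 0 passed an FDR of 0.05 with edgeR. T cell, B cell and skeletal muscle sums stayed under 5 CPM in every library. The part of these cells in the values of the 7 genes was not tested.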

How the data were processed

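Ribosomal RNA-depleted libraries, 1 per mouse, were sequenced from total aortic RNA. The authors deposited estimated counts per gene, made with Illumina DRAGEN against the Ensembl release 101 mouse reference (mm10) and with no filter. The setting for strand was not given in the sources used here. The main test here was edgeR 4.0.16 (R 4.3.3), whereas the study's methods name DESeq2, which was run as an alternative. Estimated counts were rounded, and the study's own filter was applied, which asks for more than 10 counts in every library of the controls, of the iSM KO mice or of both. Counts were scaled by TMM, and p-values of the quasi-likelihood fit were adjusted after Benjamini and Hochberg over all tested genes (FDR). Standard errors are the log2 fold change divided by the root of the F statistic, and CPM used TMM-scaled library sizes. The scripts were tested on simulated data. Alternatives were DESeq2 1.42.0, limma-voom (limma 3.58.1), DESeq2 size factors, no filter, filterByExpr, a replicate block, coding length and leaving out each library. Each SD and standard error rests on 3 mice a group, and library totals set the precision of the low genes. Levels per kb used the longest coding transcript of the GRCm38 annotation. Coding sequences were aligned with MAFFT and searched for copies with BLASTN 2.17.0.

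Genes named are the 7 members, Prdm16, the 3 genes nearest to each tested member in centred log2 CPM (prior count 2), and up to 4 called genes of each list in each direction with the smallest FDR, of which 1 is not reported here. Markers named beside a result were chosen after their values were seen. The members, the 10 pathway lists and the 12 cell type marker lists were chosen with earlier results of these data known.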

Additional observations from a re-analysis of the deposited data

How the results depend on the processing

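Spock2 was past the threshold under every setting tried, and no direction reversed under any of them. Smoc2 joined it only without control replicate 2, so that 1 to 2 members passed with a library left out. Over all genes, leaving out a library gave 288 to 530 genes past the threshold, 163 to 243 of them higher and 125 to 318 lower, and 513 to 1392 with an FDR under 0.05. With no filter on low counts 349 genes were lower. Genes of the 10 lists with an FDR under 0.05 numbered 17 to 35 with a library left out. By list these ranges were 3 to 5 for follistatin or Kazal genes, 1 to 4 for collagens, 1 to 2 for other SPARC partners, 2 to 6 for matricellular genes, 1 to 2 for proteases, 4 to 5 for heparan sulfate enzymes, 1 to 4 for chondroitin sulfate enzymes, 2 to 6 for proteoglycan cores, 0 to 2 for BMP ligands and receptors and 1 to 3 for BMP targets. DESeq2 called 5 collagens, 8 proteoglycan cores, 1 BMP ligand or receptor and 4 BMP targets. No filter gave 5 collagens, 8 matricellular genes, 1 BMP ligand or receptor and 4 BMP targets. Limma-voom and filterByExpr each gave 1 protease. The cause of these changes was not tested.

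Same-numbered libraries had correlations of -0.13, -0.046 and -0.11 between their deviations from the group means, and differently numbered ones 0.00082 to 0.11. No pairing by replicate number was seen, but 3 libraries a group cannot settle whether samples were paired. A fit with a replicate block gave 775 genes with an FDR under 0.05, 20 of them list genes, with 3 matricellular genes, 1 protease, 2 chondroitin sulfate enzymes, 2 proteoglycan cores and 1 BMP target. Spock2 alone of the members was past the threshold in it. Spock1 and Spock3 had at most 25 counts in a library, and without the filter their log2 fold changes were 0.88 (standard error 0.65) and 1.58 (standard error 1.46), too imprecise at this depth to give a direction.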

Other observations

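Further marker lists bear on the make-up of the aortas. Of 8 smooth muscle markers 2 rose, and the list summed to 22528 to 27492 CPM in controls and 24265 to 26724 CPM in iSM KO. Of 4 tested cardiomyocyte markers 2 rose, Actn2 and Ryr2. Myh6 and Tnni3 had log2 fold changes of -0.88 and -0.24 and did not pass. The sums were 119 to 148 CPM in controls and 160 to 215 CPM in iSM KO, most of it from Ryr2, at means of 127 and 180 CPM. The defining markers Myl2 and Myl7 had at most 8 and 2 counts in a library. Of 5 tested neuron markers 1 rose, with sums of 7.08 to 8.06 CPM and 7.02 to 16.9 CPM, and Dbh had 0 counts in every library. Of the T cell markers only Trac was tested, and it rose, from a mean of 0.101 CPM in controls to 0.825 CPM in iSM KO. It passed the filter on low counts only through the iSM KO libraries, so nothing is read from its rise. T cell sums were 0.597 to 1.13 CPM in controls and 1.12 to 1.42 CPM in iSM KO, which overlapped.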
